A study of Mus musculus with 22 samples.

Results

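Mitosis genes, the set of 42 genes whose products drive a cell from the end of G2 through the separation of its daughter cells, were followed in mouse mammary tumours and normal mammary glands. A probe set was taken as a member when its only gene symbol was one of the 42. This gave 73 of the 36701 probe sets on the arrays and 40 of the 15964 genes that had a probe set of their own. The cyclin gene Ccnb1 and the spindle gene Hmmr had no such probe set and are not analysed here. Where a gene had several probe sets, as 19 genes did, it is described by the brightest one, taken as the mean of log2 signals over the arrays.

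The tumours arose from a Her2/Neu transgene, coding for the receptor ErbB2, in mice that the labels call PEA3-null or PEA3 wild type. PEA3 is an ETS transcription factor encoded by Etv4. Affymetrix MG-U74v2 arrays, made as 3 chip types, measured the total RNA. There were 2 RNA samples from PEA3-null tumours, 3 from PEA3 wild-type tumours and 3 from normal FVB mammary glands, on 22 arrays in all. Chips A and B held all 8 samples, and chip C held PEA3-null sample 1, wild-type samples 1 and 2 and the 3 normal samples. Both tumour groups carry the transgene and the normal glands are described without it. Pooling is stated for the tumour RNA, and the word pool stands in the titles of the normal samples. The promoter of the transgene and the age of the mice are not given in the sources used here, and the labels state, for each group alike, sorting by the surface protein Sca-1. Each group has 1 sample identifier in the labels, so replicates may have been prepared repeatedly from 1 source of tissue, and p-values measure only the spread between them.

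Entry into mitosis is driven by cyclin-dependent kinase 1, which is switched on by cyclins A and B and by phosphatases of the Cdc25 family. The spindle assembly checkpoint then holds the cell until every chromosome is attached, after which the anaphase-promoting complex, with its activator Cdc20, marks securin and cyclin B for destruction. Many of these genes are transcribed late in the cell cycle through promoter elements known as the cell cycle genes homology region (CHR) and the CCAAT box. Few cells of a resting gland divide.

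Signals are scaled to a common trimmed mean of 500 on each array, and log2 differences were taken after adding 32. A scaled signal of 150 was reached by 6939 to 8430 probe sets on each array. Etv4 did not differ past the threshold between the arrays labelled PEA3-null and wild type. Its 2 tested probe sets differed between the tumour groups by -0.01 and -0.22 on the log2 scale (limma adjusted p = 0.998 and 0.875), and probe positions relative to the deletion are not given in the sources used here, so the groups are named by their labels. Summed over 6 luminal epithelial markers, the signal was 36423 to 40382 in PEA3-null tumours, 33723 to 38803 in wild-type tumours and 4996 to 6380 in normal glands. Summed over 5 skeletal muscle markers, it was 467 and 2705 in PEA3-null samples 1 and 2, 479 to 591 in wild-type tumours and 141471 to 145179 in normal glands. Of those 5, 1 was under 150 in every PEA3-null sample and 3 in every wild-type sample. The 4 measured adipocyte markers of 6 listed summed to 1469 and 1491 in PEA3-null tumours, 710.0 to 1107 in wild-type tumours and 47940 to 51221 in normal glands. The 6 measured lymphocyte markers of 7 listed summed to 811 and 1342 in PEA3-null tumours, 587 to 734 in wild-type tumours and 3883 to 4992 in normal glands, with 3 of them under 150 throughout each tumour group. The part of these cell types in the results was not tested. In bulk RNA, fewer cells of a type and less RNA per cell cannot be told apart. No normal array was scanned on a day when a tumour array of its chip type was, so tissue cannot be told apart from scan day. The ratio of 3′ to 5′ GAPDH signal, a measure of RNA integrity, was 0.91 to 1.25 on tumour arrays and 2.58 to 6.08 on normal gland arrays. For actin the ratio was 1.14 to 1.66 on tumour arrays and 1.28 to 2.14 on normal gland arrays, ranges that overlap. The instrument files record an aborted wash for normal glands 1 and 2 on chip A.

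Most promoters of the members held the letters of the late cell cycle elements. RefSeq windows (assembly GRCm38.p6) from 250 bases before to 50 bases after the start were found for 35 of the 42 members and searched on both strands for TTTGAA and TTCGAA, the core of the CHR, for CCAAT, and for the E2F words TTTGGCGC and TTTCGCGC. TTCGAA reads the same on both strands, and no word contains another. A CHR core stood in 27 of the 35 members (77.1%), against 19.2% of all 32851 windows. CCAAT stood in 29 members (82.9%), against 37.4% of windows, and both together in 25 members (71.4%), against 7.52%. Only Cdk1 held an E2F word, against 0.813% of windows. A gene with several windows counted once where any of them held the word. Of the 16 members with a window that were higher in a tumour group than in normal glands, 12 held a CHR core (75%), and of the 17 measured members that were not, 14 did (82.4%). The 100 bases before the start are shown for the members with a window that were past the threshold against normal glands, in each tumour group, under every alternative run. The strand of the gene is given, each sequence runs 5′ to 3′, and capitals mark the CHR core (TTTGAA or its complement TTCAAA) and CCAAT (or its complement ATTGG).
Cdk1, chr10:69352913-69353012, minus strand: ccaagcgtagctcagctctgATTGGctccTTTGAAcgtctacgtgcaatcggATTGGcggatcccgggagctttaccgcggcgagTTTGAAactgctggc
Ccnb2, chr9:70421555-70421654, minus strand: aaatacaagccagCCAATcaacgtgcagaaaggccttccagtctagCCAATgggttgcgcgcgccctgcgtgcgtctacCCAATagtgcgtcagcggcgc
Cks1b, chr3:89418292-89418391, minus strand: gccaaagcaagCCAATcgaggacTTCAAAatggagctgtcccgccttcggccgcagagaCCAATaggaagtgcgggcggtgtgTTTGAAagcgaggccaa
Cks2, chr13:51645132-51645231, plus strand: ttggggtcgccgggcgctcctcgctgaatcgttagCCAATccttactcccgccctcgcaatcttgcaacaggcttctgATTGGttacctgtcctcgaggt
Cdc20, chr4:118437344-118437443, minus strand: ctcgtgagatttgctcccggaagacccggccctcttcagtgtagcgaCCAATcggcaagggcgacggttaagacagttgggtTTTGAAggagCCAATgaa
Spag5, chr11:78301491-78301590, plus strand: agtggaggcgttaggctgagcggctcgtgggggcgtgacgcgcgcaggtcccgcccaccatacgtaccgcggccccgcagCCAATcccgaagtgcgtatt
Birc5, chr11:117849137-117849236, plus strand: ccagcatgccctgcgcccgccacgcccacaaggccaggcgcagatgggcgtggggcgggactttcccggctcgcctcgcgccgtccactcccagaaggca
Cdk1, Cks1b and Cdc20 show both words within this stretch. Ccnb2 and Spag5 have a CHR core just after the start, outside the printed bases. The Cks2 window held CCAAT and no CHR core, and the Birc5 window held none of these letters, which says nothing of the factors that bind there.

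Set against normal glands, the tumours read higher for much of the mitotic machinery. In PEA3-null tumours 17 of the 34 members on chips A and B were higher and 0 were lower (limma adjusted p under 0.05), where 13.5% of 10421 tested genes were higher and 15.3% were lower. The median log2 difference of the members was 1.21, beside 0.02 over all tested genes. In wild-type tumours 20 of the 40 members tested were higher and 1 was lower, where 13.0% of 13877 tested genes were higher and 13.8% were lower. Their median was 1.07, beside -0.00 over all tested genes. It takes in the 6 members read on chip C, which the median of PEA3-null tumours leaves out, so the 2 medians are not comparable. The wild-type median on chips A and B is given further below. At an unadjusted p under 0.05, either way, there were 23 of 34 members in PEA3-null tumours, where 40.5% of tested genes reached it, and 26 of 40 in wild-type tumours, where 39.0% did. All 40 members passed the filter on low signal, which any 2 arrays of a chip type could meet. For 13 of them every normal gland read under 150, so tumour arrays alone met it. Of the 20 members higher in wild-type tumours, 7 were among these. The 2 comparisons use the same normal glands, so they are not independent of each other. A fit without normal glands 1 and 2 keeps 1 normal gland, and the share of all tested genes in it is not given here. A loss among the members therefore cannot be told apart there from a loss over all genes. Without normal glands 1 and 2, the samples with the aborted wash, 10 members were higher in PEA3-null tumours, 11 were higher in wild-type tumours, and 0 were lower in either.

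Each sample was also set against the mean of the normal glands, over the 34 members read on chips A and B. The median member stood 1.45 and 1.16 above it on the log2 scale in PEA3-null samples 1 and 2, and 1.51, 1.21 and 1.30 above it in wild-type samples 1, 2 and 3. The normal glands themselves lay at 0.11, -0.14 and 0.09. No tumour sample overlapped the normal glands in this median. Member by member, all PEA3-null samples lay above all normal samples for 25 of 34 genes, where 28.4% of all tested genes did. All wild-type samples lay above all normal samples for 29 of 40 genes, where 23.8% of all tested genes did. The opposite separation was seen for 2 of 34 members in PEA3-null tumours, where 28.3% of tested genes showed it, and for 1 of 40 in wild-type tumours, where 24.8% did.

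**Figure D1:**
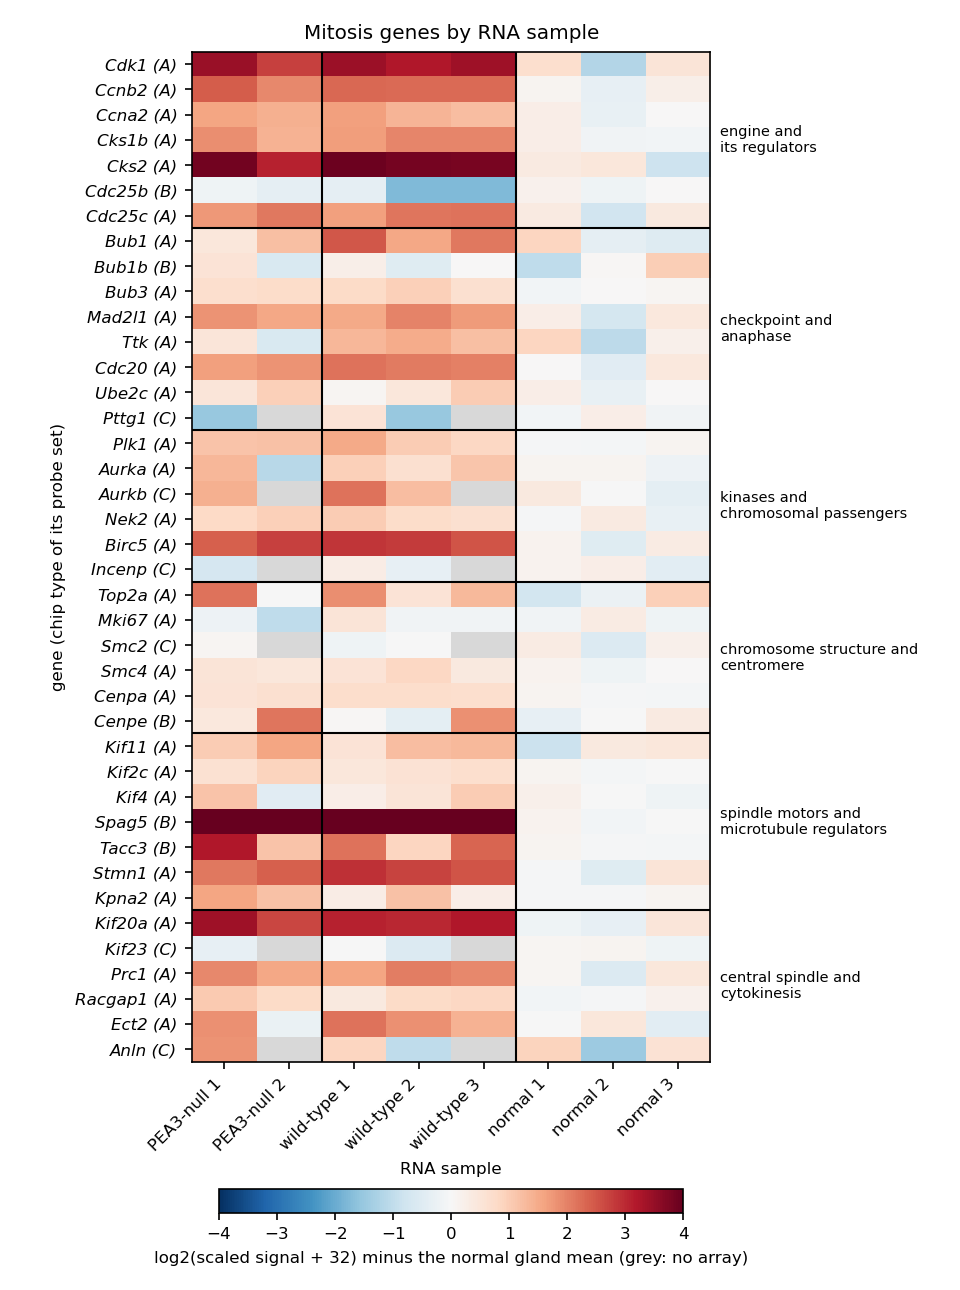
Heat map of the 40 members by RNA sample, as log2(scaled signal + 32) minus the mean of the normal glands, with genes grouped by role and the chip type of each probe set in brackets. Cdk1, Cks2, Kif20a and Spag5 are the darkest rows of the 5 tumour samples, and Spag5 lies beyond the end of the colour scale.

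Most of the mitotic engine rose. Of its 7 measured members 6 were higher in PEA3-null tumours and 6 in wild-type tumours, beside 13.5% and 13.0% of all tested genes. Cdk1, the kinase itself, read 2400 and 1441 in the PEA3-null tumours, 2382, 2045 and 2336 in the wild-type tumours, and 323, 66.9 and 286 in the normal glands. Every tumour sample lay above every normal gland, and normal gland 2 was the lowest of all. The log2 difference from normal glands was 3.08 in PEA3-null tumours (SE 0.45, limma adjusted p = 4.22e-04) and 3.35 in wild-type tumours (SE 0.40, limma adjusted p = 9.57e-05).

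Both measured cyclins followed. Ccnb2, a B-type cyclin, read 3358 and 2399 in the PEA3-null tumours, 3136, 3064 and 3064 in the wild-type tumours, and 657, 473 and 718 in the normal glands. The tumour and normal ranges were well apart, and the wild-type samples were close to one another. It was 4.49-fold higher in PEA3-null tumours (limma adjusted p = 1.72e-05) and 4.88-fold higher in wild-type tumours (limma adjusted p = 4.23e-06). Ccna2, which encodes cyclin A2, needed in S phase and at mitotic entry, read 869 and 772 in PEA3-null tumours, 905, 735 and 673 in wild-type tumours, and 329, 216 and 275 in normal glands. Again no tumour sample reached down to a normal gland. The log2 difference was 1.50 in PEA3-null tumours (SE 0.24, limma adjusted p = 8.95e-04) and 1.40 in wild-type tumours (SE 0.22, limma adjusted p = 6.54e-04).

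The small Cks proteins bind Cdk1 and help it act on its substrates. Cks2 read 1602 and 927 in PEA3-null tumours, 1677, 1582 and 1560 in wild-type tumours, and 115, 125 and 31.6 in normal glands. PEA3-null sample 2 was the lowest tumour and still far above the normal glands. The log2 difference was 3.46 in PEA3-null tumours (SE 0.37, limma adjusted p = 5.01e-05) and 3.85 in wild-type tumours (SE 0.33, limma adjusted p = 8.36e-06). Its relative Cks1b, also a cofactor of the SCF-Skp2 ubiquitin ligase, read 2366 and 1700 in PEA3-null tumours, 2079, 2549 and 2562 in wild-type tumours, and 775, 568 and 580.4 in normal glands. All tumour samples lay above all normal glands for Cks1b too. It was 3.06-fold higher in PEA3-null tumours (limma adjusted p = 1.64e-04) and 3.63-fold higher in wild-type tumours (limma adjusted p = 2.23e-05). For Cks2 and 12 other members every normal gland read under 150, so the size of their folds depends on the constant added and the order of those folds was not measured.

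The phosphatases that switch Cdk1 on went opposite ways in wild-type tumours. Cdc25c read 265 and 348 in PEA3-null tumours, 244, 364 and 373 in wild-type tumours, and 83, 20.6 and 84.3 in normal glands. It was higher in every tumour sample, with log2 differences of 1.92 in PEA3-null tumours (limma adjusted p = 0.00767) and 1.99 in wild-type tumours (limma adjusted p = 0.00328). Cdc25b, which acts earlier at the centrosome, read 883 and 772 in PEA3-null tumours, 784, 277 and 273 in wild-type tumours, and 1140, 892 and 1010 in normal glands. Wild-type samples 2 and 3 were low, whereas wild-type sample 1 read within the PEA3-null range. In PEA3-null tumours the log2 difference of Cdc25b was -0.28 (limma adjusted p = 0.666). It was 2.45-fold lower in wild-type tumours (log2 -1.29, SE 0.37, limma adjusted p = 0.0225), the only member below normal glands past the threshold. The call in wild-type tumours was lost without wild-type sample 2 or 3 (limma adjusted p = 0.088 and 0.0876) and without normal gland 1, 2 or 3 (0.0854, 0.0504 and 0.0691).

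**Figure D2:**
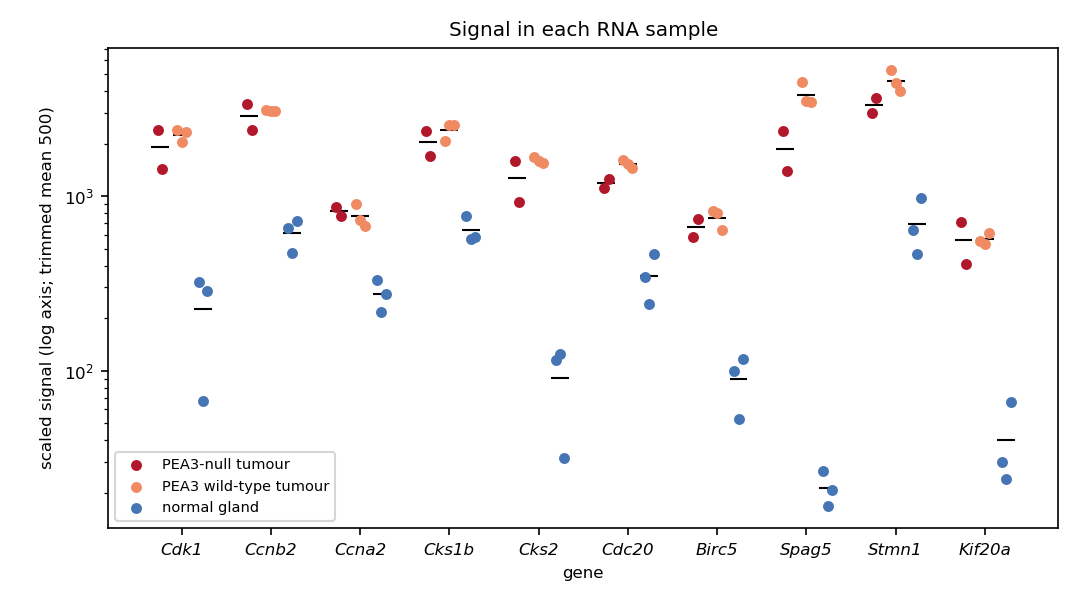
Scaled signal in each RNA sample on a log axis, for the members past the threshold against normal glands in each tumour group under every alternative run; points are RNA samples and bars are group means. For each gene all PEA3-null and wild-type points lie above all normal gland points, for Cdc20 at 1118 to 1623 in tumours and 241 to 465 in normal glands.

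Among the genes of the checkpoint and of anaphase, 3 of 7 were higher in PEA3-null tumours and 4 of 8 in wild-type tumours. Over all tested genes the shares were 13.5% and 13.0%. Cdc20, the activator of the anaphase-promoting complex, read 1118 and 1254 in PEA3-null tumours, 1623, 1540 and 1453 in wild-type tumours, and 344, 241 and 465 in normal glands. All tumour samples were above all normal glands, and both PEA3-null samples were below all wild-type samples. It was 3.28-fold higher in PEA3-null tumours (limma adjusted p = 3.37e-04) and 4.24-fold higher in wild-type tumours (limma adjusted p = 3.25e-05). Mad2l1, the checkpoint protein that holds Cdc20 back, read 501 and 423 in PEA3-null tumours, 407, 585 and 474 in wild-type tumours, and 154, 63.9 and 175 in normal glands. The gap between tumour and normal samples was wider than the spread within either, with log2 differences of 1.67 in PEA3-null tumours (limma adjusted p = 0.00601) and 1.74 in wild-type tumours (limma adjusted p = 0.0025).

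Bub3, which brings checkpoint kinases to the kinetochore, read 1535 and 1624 in PEA3-null tumours, 1652, 1884 and 1500 in wild-type tumours, and 893, 969 and 1022 in normal glands. The samples of each group were close together, and all tumour samples lay above all normal glands. It was 1.62-fold higher in PEA3-null tumours (limma adjusted p = 0.00934) and 1.72-fold higher in wild-type tumours (limma adjusted p = 0.00265). Its probe set on chip B had the other sign, at -0.76 on the log2 scale in PEA3-null tumours and -0.92 in wild-type tumours, and did not pass (limma adjusted p = 0.232 and 0.118). The kinase gene Bub1 read 36.4 and 82.4 in PEA3-null tumours, 247, 115 and 187 in wild-type tumours, and 59.7, 6.98 and 3.43 in normal glands. All wild-type samples and PEA3-null sample 2 stood above the normal glands, and PEA3-null sample 1 fell within their range. In PEA3-null tumours the log2 difference was 0.82 (SE 0.60, limma adjusted p = 0.359), and in wild-type tumours Bub1 was higher by 2.05 (SE 0.53, limma adjusted p = 0.0173). The call was lost without normal gland 2 or 3 (limma adjusted p = 0.0705 and 0.073).

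The other members of this group did not pass. Ttk, the Mps1 kinase that starts checkpoint signalling, read 99.1 and 28.7 in PEA3-null tumours, 204, 229 and 183 in wild-type tumours, and 136, 13.4 and 74.5 in normal glands. Its wild-type samples lay above both other groups, which overlapped each other, and the difference of wild-type tumours from normal glands was 1.34 (SE 0.53, limma adjusted p = 0.102). Bub1b, a subunit of the mitotic checkpoint complex, ranged from 108 to 278 in PEA3-null tumours, 120.1 to 218 in wild-type tumours and 74.4 to 388 in normal glands, with no separation. Ube2c, the ubiquitin-conjugating enzyme of the anaphase-promoting complex, differed by 0.72 in PEA3-null tumours and 0.51 in wild-type tumours. For Pttg1, which encodes securin, the brightest probe set was on chip C and read 5210 and 1231 in wild-type tumours against 3306, 4289 and 3247 in normal glands. The wild-type samples lay on either side of the normal glands, and without wild-type sample 1 the difference passed as a fall, at -1.52 (SE 0.28, limma adjusted p = 0.0104), with a lone wild-type array assumed to vary like the others. Its chip A probe set read 1614 and 1128 in PEA3-null tumours, 1627, 1724 and 1216 in wild-type tumours, and 510.0, 391 and 742 in normal glands. There every tumour was above every normal gland, with log2 differences of 1.30 in PEA3-null tumours (limma adjusted p = 0.0045) and 1.45 in wild-type tumours (limma adjusted p = 0.0011).

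Of the mitotic kinases and chromosomal passengers, 2 of 4 were higher in PEA3-null tumours and 3 of 6 in wild-type tumours. Over all tested genes the shares were 13.5% and 13.0%. Birc5, which encodes survivin, the passenger subunit that directs Aurora B to centromeres, read 587 and 745 in PEA3-null tumours, 824, 796 and 637 in wild-type tumours, and 99.1, 52.6 and 116 in normal glands. Tumour samples of both genotypes overlapped and none came near a normal gland. It was higher by 2.56 on the log2 scale in PEA3-null tumours (SE 0.31, limma adjusted p = 1.21e-04) and by 2.72 in wild-type tumours (SE 0.28, limma adjusted p = 2.92e-05). Plk1, the polo-like kinase that acts from mitotic entry to cytokinesis, read 696 and 714 in PEA3-null tumours, 918, 645 and 564 in wild-type tumours, and 289.8, 286 and 329 in normal glands. The groups of tumour and normal samples were apart, at 2.21-fold in PEA3-null tumours (limma adjusted p = 0.00566) and 2.18-fold in wild-type tumours (limma adjusted p = 0.00338). A dimmer Plk1 probe set passed in PEA3-null tumours (log2 1.19, limma adjusted p = 0.0424) and not in wild-type tumours (0.39, limma adjusted p = 0.489). The dimmest passed in neither, at 0.81 in PEA3-null tumours and 0.61 in wild-type tumours (limma adjusted p = 0.404 and 0.534).

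Aurkb, the catalytic passenger, had its brightest probe set on chip C, with 604 in the lone PEA3-null sample, 1051 and 526 in wild-type tumours, and 284, 206 and 151 in normal glands. It was higher in wild-type tumours by 1.70 on the log2 scale (SE 0.51, limma adjusted p = 0.0423). Leaving out any sample of that comparison on chip C ended the call, with limma adjusted p of 0.0506 to 0.252. On chip A, Aurkb read 446 and 217 in PEA3-null tumours, 527, 416 and 359 in wild-type tumours, and 71.2, 55 and 72.7 in normal glands. There all tumour samples lay above all normal glands. The differences from normal glands were 1.82 in PEA3-null tumours (limma adjusted p = 0.00425) and 2.23 in wild-type tumours (limma adjusted p = 5.19e-04). Incenp, the scaffold of the passenger complex, had 6 probe sets tested in wild-type tumours, of both signs, and none passed. Nek2, a centrosomal kinase, read 384 and 432 in PEA3-null tumours, 462, 369 and 342 in wild-type tumours, and 202, 275 and 165 in normal glands. All tumour samples were above all normal glands, and the log2 differences of 0.86 in PEA3-null tumours and 0.80 in wild-type tumours fell short of the threshold (limma adjusted p = 0.0556 and 0.0555).

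Aurka, the kinase of centrosome maturation and spindle assembly, read 379 and 43.7 in PEA3-null tumours, 285, 223 and 322 in wild-type tumours, and 143, 144 and 108 in normal glands. PEA3-null sample 1 was the highest of all samples and PEA3-null sample 2 the lowest. The difference did not pass in PEA3-null tumours (0.12, limma adjusted p = 0.912) or in wild-type tumours (0.91, limma adjusted p = 0.269). Without PEA3-null sample 2 both passed, at 1.34 in PEA3-null tumours (limma adjusted p = 0.0367) and 0.91 in wild-type tumours (limma adjusted p = 0.0416). The PEA3-null value then rests on 1 sample, with the spread taken from the remaining groups.

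Of 5 genes of chromosome structure and the centromere measured in PEA3-null tumours 0 passed, where 13.5% of all tested genes were higher and 15.3% lower. At an unadjusted p under 0.05 there were 2 of 5, near the 40.5% of all tested genes. In wild-type tumours 2 of 6 were higher, beside 13.0% of all tested genes. Cenpa, the histone variant that marks centromeres, read 459.6 and 487 in PEA3-null tumours, 517, 519 and 505 in wild-type tumours, and 333, 295 and 285 in normal glands. The samples of each group were tight and the 3 groups did not overlap. The log2 difference of PEA3-null tumours was 0.59 (limma adjusted p = 0.0869), and Cenpa was 1.62-fold higher in wild-type tumours (limma adjusted p = 0.0319). Smc4, a core subunit of condensin, read 786 and 756 in PEA3-null tumours, 801, 972 and 718 in wild-type tumours, and 599, 476 and 548 in normal glands. Tumours were above normal glands in every sample, with a log2 difference of 0.49 in PEA3-null tumours (limma adjusted p = 0.112) and at 1.50-fold in wild-type tumours (limma adjusted p = 0.0461). The Cenpa call was lost without any single wild-type or normal sample (limma adjusted p of 0.06 to 0.105), and the Smc4 call without wild-type sample 1 or 2 or any normal gland (0.0722 to 0.168).

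The classical proliferation marker Mki67, which encodes Ki-67, read 176 and 86.9 in PEA3-null tumours, 309, 184 and 182 in wild-type tumours, and 184, 266 and 177 in normal glands. Wild-type tumours and normal glands overlapped, and both PEA3-null samples were below every normal gland, PEA3-null sample 1 narrowly. The differences were -0.60 in PEA3-null tumours (SE 0.40, limma adjusted p = 0.318) and 0.07 in wild-type tumours (SE 0.36, limma adjusted p = 0.919). The other Mki67 probe set did not pass the filter on low signal. Top2a, the topoisomerase that untangles sister chromatids, read 317 and 45.1 in PEA3-null tumours, 251, 81.5 and 160.3 in wild-type tumours, and 15.3, 35 and 118 in normal glands. Tumour and normal samples overlapped, with differences of 1.07 in PEA3-null tumours and 1.24 in wild-type tumours (limma adjusted p = 0.314 and 0.219). Smc2, the other core condensin subunit, differed by -0.09 in wild-type tumours on chip C. Its chip A probe set differed by 0.08 in PEA3-null tumours and 0.18 in wild-type tumours (limma adjusted p = 0.904 and 0.789). A dimmer chip B probe set was higher in wild-type tumours by 1.78 (limma adjusted p = 0.0323). It did not pass in PEA3-null tumours (1.15, limma adjusted p = 0.194). Cenpe, a kinetochore motor, ranged from 173 to 646 in PEA3-null tumours, 85.4 to 511 in wild-type tumours and 89.5 to 165 in normal glands.

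**Figure D3:**
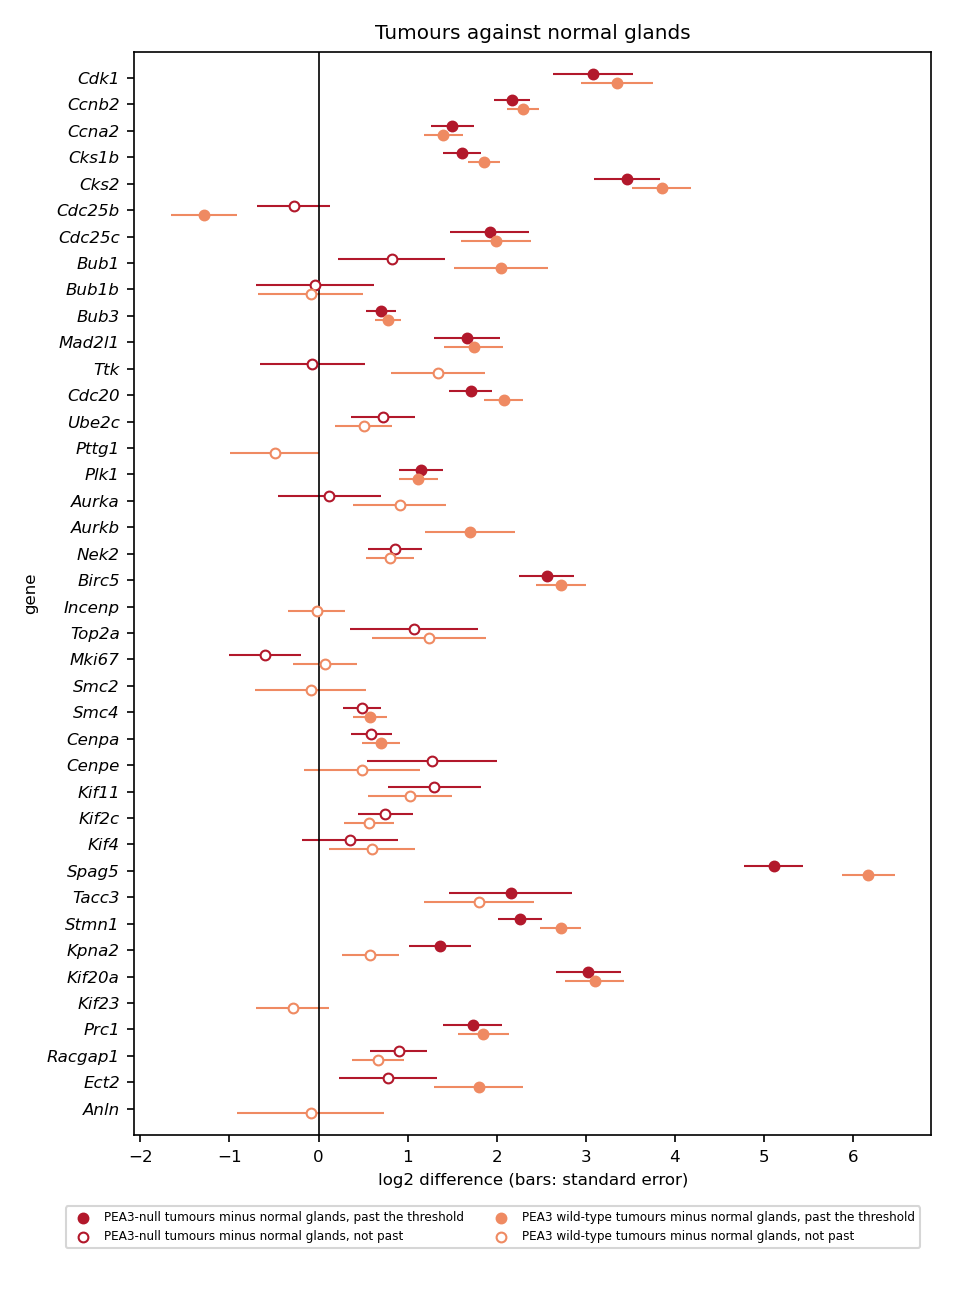
Log2 difference from normal glands for each member, with PEA3-null tumours in dark red and wild-type tumours in orange; bars are standard errors, filled points passed limma adjusted p under 0.05 and open points did not. Most points lie right of 0, from -1.29 for Cdc25b to 6.17 for Spag5 in wild-type tumours, and 6 genes read on chip C have no PEA3-null point.

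Of the spindle motors and microtubule regulators, 4 of 7 were higher in PEA3-null tumours and 2 of 7 in wild-type tumours. Over all tested genes the shares were 13.5% and 13.0%. All 7 differences were positive in each, where 50.7% and 50% of all tested genes were. Spag5, the astrin of the spindle, read 2353 and 1387 in PEA3-null tumours, 4510, 3512 and 3458 in wild-type tumours, and 26.4, 16.7 and 20.6 in normal glands. The 3 groups were apart, and the normal glands were far below the signal of 150 used as a filter, so this fold depends on the constant added. The log2 difference was 5.11 in PEA3-null tumours (SE 0.33, limma adjusted p = 3.54e-07) and 6.17 in wild-type tumours (SE 0.30, limma adjusted p = 2.39e-08). A chip A probe set of Spag5, also past the threshold, gave 2.11 in PEA3-null tumours and 2.22 in wild-type tumours. Stmn1, which encodes stathmin, a protein that takes microtubules apart, read 3000 and 3637 in PEA3-null tumours, 5305, 4484 and 3995 in wild-type tumours, and 644, 469 and 973 in normal glands. All samples of the 3 groups were apart, with tumours 4.78-fold above normal glands in PEA3-null samples (limma adjusted p = 6.76e-05) and 6.58-fold in wild-type samples (limma adjusted p = 5.99e-06).

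Tacc3, which stabilises spindle microtubules with Aurora A, read 795 and 167 in PEA3-null tumours, 379, 134 and 427 in wild-type tumours, and 65.2, 56.2 and 54.7 in normal glands. The normal glands were uniformly low and the tumours were scattered above them. The difference passed in PEA3-null tumours (2.16, SE 0.69, limma adjusted p = 0.0352) and fell short in wild-type tumours (1.80, SE 0.62, limma adjusted p = 0.0547). Without PEA3-null sample 1 it did not pass in PEA3-null tumours (1.14, limma adjusted p = 0.318), nor without normal gland 1, 2 or 3 (0.072 to 0.0838). In wild-type tumours it passed without wild-type sample 2 (2.26, limma adjusted p = 0.0302) and without either PEA3-null sample (1.80, limma adjusted p = 0.0314 and 0.0252). Kpna2, an importin that holds spindle assembly factors until Ran-GTP releases them, read 564 and 418 in PEA3-null tumours, 216, 426 and 208 in wild-type tumours, and 164, 162 and 184 in normal glands. Its PEA3-null samples were clear of the normal glands and wild-type samples 1 and 3 were close to them. Kpna2 was 2.57-fold higher in PEA3-null tumours (limma adjusted p = 0.0154, 0.0962 without PEA3-null sample 1), with a difference of 0.58 in wild-type tumours (limma adjusted p = 0.246).

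The motors themselves did not pass. Kif11, the bipolar kinesin that pushes spindle poles apart, read 147 and 235 in PEA3-null tumours, 96.6, 178 and 186 in wild-type tumours, and 17.4, 84.6 and 89.4 in normal glands. The tumours were above the normal glands in every sample, with differences of 1.30 in PEA3-null tumours and 1.03 in wild-type tumours (limma adjusted p = 0.0937 and 0.156). Kif2c, which takes microtubules apart at centromeres, ranged from 256 to 318 in PEA3-null tumours, 228 to 267 in wild-type tumours and 145 to 172 in normal glands. Both tumour ranges lay above that of the normal glands. The differences of 0.75 in PEA3-null tumours and 0.57 in wild-type tumours did not pass (limma adjusted p = 0.106 and 0.191). Kif4, a chromosome-bound kinesin, differed by 0.35 in PEA3-null tumours and 0.60 in wild-type tumours (limma adjusted p = 0.686 and 0.452).

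In the last step, the central spindle and cytokinesis, 2 of 4 members were higher in PEA3-null tumours and 3 of 6 in wild-type tumours. Over all tested genes the shares were 13.5% and 13.0%. Kif20a, the kinesin that brings the passenger complex to the central spindle, read 707 and 409 in PEA3-null tumours, 555, 531 and 617 in wild-type tumours, and 30.1, 24 and 66 in normal glands. The tumours of both genotypes overlapped and the normal glands were all low. The differences were 3.03 in PEA3-null tumours (SE 0.37, limma adjusted p = 1.18e-04) and 3.10 in wild-type tumours (SE 0.33, limma adjusted p = 3.88e-05). A second, dimmer Kif20a probe set gave 1.29 in PEA3-null tumours and 1.46 in wild-type tumours and did not pass. Prc1, which bundles the microtubules of the central spindle, read 669 and 508 in PEA3-null tumours, 524, 735 and 666 in wild-type tumours, and 163, 96.2 and 223 in normal glands. It was above the normal glands in every tumour, at 3.31-fold in PEA3-null tumours (limma adjusted p = 0.0024) and 3.60-fold in wild-type tumours (limma adjusted p = 7.39e-04).

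Ect2, the exchange factor that switches on RhoA at the division plane, read 413 and 73.6 in PEA3-null tumours, 542, 418 and 301 in wild-type tumours, and 92.2, 141 and 62.1 in normal glands. PEA3-null sample 2 fell within the normal range, while the other tumours were clear of it. The difference was 0.78 in PEA3-null tumours (SE 0.55, limma adjusted p = 0.346) and 1.80 in wild-type tumours (SE 0.50, limma adjusted p = 0.0227). Without PEA3-null sample 2, the difference of PEA3-null tumours was 1.82 (limma adjusted p = 0.0192), from 1 sample, with the spread taken from the remaining groups. The wild-type call was lost without wild-type sample 1 or 2 or normal gland 1 or 3 (limma adjusted p of 0.0631 to 0.0872). Racgap1, the subunit of the centralspindlin complex that binds Ect2, ranged from 287 to 355 in PEA3-null tumours, 218 to 306 in wild-type tumours and 142 to 179 in normal glands. Both tumour ranges lay above that of the normal glands. The differences of 0.90 in PEA3-null tumours and 0.67 in wild-type tumours did not pass (limma adjusted p = 0.0615 and 0.129). That of PEA3-null tumours passed without wild-type sample 1 (limma adjusted p = 0.0479). Kif23, the motor of centralspindlin, differed by -0.29 in wild-type tumours on chip C. Its chip A probe set read 294 and 263 in PEA3-null tumours, 136, 113 and 169 in wild-type tumours, and 195, 35 and 69.4 in normal glands. There the PEA3-null samples lay above all others, wild-type tumours and normal glands overlapped, and the differences from normal glands were 1.42 in PEA3-null tumours and 0.56 in wild-type tumours (limma adjusted p = 0.0633 and 0.456). Anln, the cleavage furrow protein anillin, differed by -0.09 on chip C, where wild-type samples read 489 and 109 and normal glands 499, 73.4 and 394. Its chip A probe set gave 1.49 in PEA3-null tumours and 1.25 in wild-type tumours (limma adjusted p = 0.0148 and 0.0224).

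**Figure D4:**
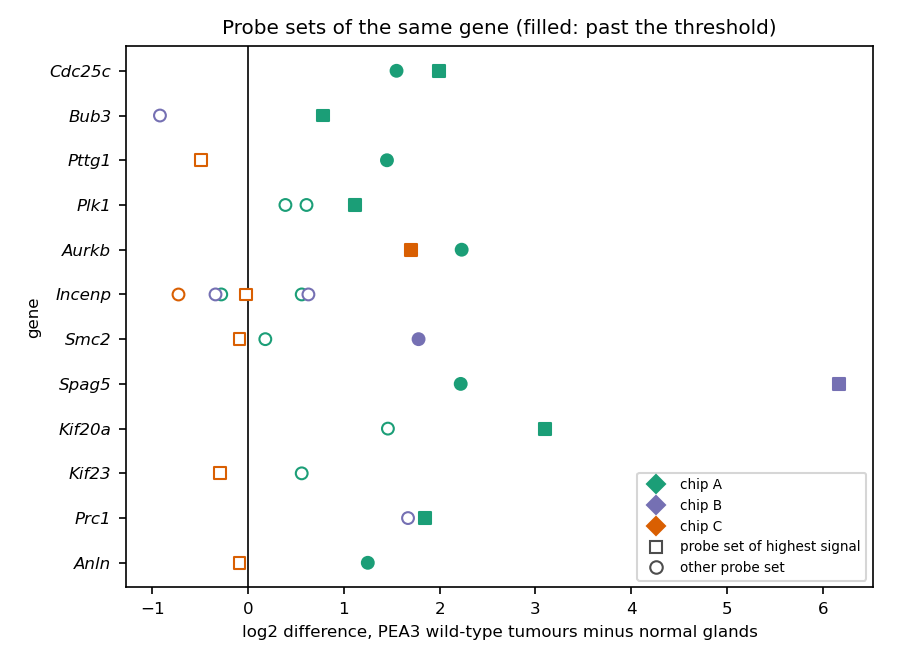
Log2 difference of wild-type tumours from normal glands for genes with more than 1 tested probe set, coloured by chip type, with squares for the probe set of highest signal and filled symbols for limma adjusted p under 0.05. Bub3, Pttg1, Incenp, Smc2, Kif23 and Anln have probe sets on both sides of 0, and Spag5 spans 2.22 to 6.17.

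Counted by probe set, 22 of 51 tested were higher in PEA3-null tumours and 0 were lower, where 12.2% of all tested probe sets were higher and 12.4% lower. In wild-type tumours 26 of 58 were higher and 1 was lower, where 10.5% were higher and 10.3% lower. For Pttg1, Smc2 and Anln the chip C probe set was the brightest and did not pass in wild-type tumours, while a probe set on chip A or B passed as higher. For Smc2 that was a chip B probe set, and the brighter chip A one did not pass. With 1 probe set per gene chosen on chips A and B alone, an alternative added after seeing the data, the median in wild-type tumours was 1.24.

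Setting tumours of the 2 genotypes against each other asks whether those labelled as lacking PEA3 differ in these genes. Of 34 members tested, 0 were higher and 0 were lower in PEA3-null tumours by limma adjusted p, where 0.173% of 10421 tested genes were higher and 0.0768% lower, or 0.249% in all. At an unadjusted p under 0.05 there were 4, Cdc25b, Ttk, Spag5 and Kpna2, where 11.2% of tested genes reached it. The median log2 difference was -0.10, beside -0.01 over all tested genes. All PEA3-null samples lay below all wild-type samples for 7 of 34 members, where 12.5% of tested genes did. The reverse was seen for 0, where 11.1% of tested genes did. The 7 were Bub1, Ttk, Cdc20, Mki67, Cenpa, Spag5 and Stmn1. These counts depend on the probe set chosen. Among dimmer tested probe sets, all PEA3-null samples lay above all wild-type samples for Plk1 (0.79), Kif23 (0.87) and Incenp (0.84 and 1.17). Another Incenp probe set lay the other way, at -0.43, and none of these passed the threshold. Incenp and Kif23 are not among the 34, since their brightest probe sets are on chip C.

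The sizes and their intervals are as follows. Spag5 differed by -1.06 on the log2 scale in PEA3-null tumours (95% interval -1.78 to -0.34, limma adjusted p = 0.273), and its chip A probe set differed by -0.11. On chip B, which holds the brighter Spag5 probe set and that of Cdc25b, PEA3-null arrays differed from wild-type arrays in scan day and in chip lot, which cannot be told apart from genotype there. Cdc25b differed by 1.01 (0.13 to 1.90, limma adjusted p = 0.392), with wild-type sample 1 among the PEA3-null values. Ttk differed by -1.41 (-2.71 to -0.10, limma adjusted p = 0.431) and Kpna2 by 0.78 (0.01 to 1.56, limma adjusted p = 0.469). For Bub1 the difference was -1.23 (-2.54 to 0.08), and for Ect2 -1.03 (-2.24 to 0.19). None of these passed, and Ttk and Bub1 read under 100 in both PEA3-null samples.

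Among the engine genes, Ccnb2 differed by -0.12 (-0.57 to 0.33), Ccna2 by 0.09 (-0.44 to 0.63) and Cks1b by -0.25 (-0.70 to 0.20). Cdk1 differed by -0.27 (-1.25 to 0.71). For 15 of the 34 members the 95% interval lay within 1 on either side of 0, and the median interval was 1.59 wide, and the other intervals reached beyond a log2 difference of 1. In a fit of just the 5 tumour arrays of chip A, all scanned on 1 day, 0 of 29 members passed and the median was -0.12.

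**Figure D5:**
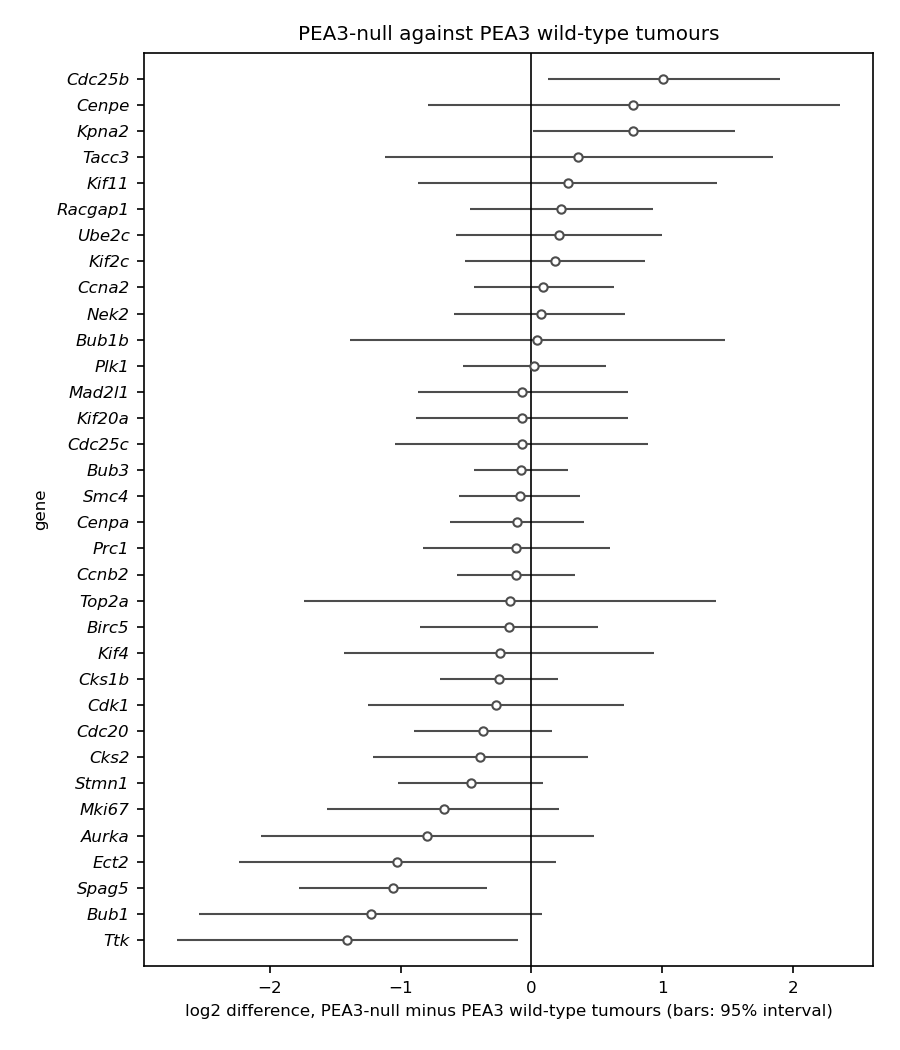
Log2 difference between PEA3-null and wild-type tumours for the 34 members read on chips A and B, sorted by size, with 95% intervals from the limma fit. Points run from -1.41 for Ttk to 1.01 for Cdc25b, and none passed the adjusted threshold.

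The 2 PEA3-null samples differed from each other in these genes. PEA3-null sample 2 was below PEA3-null sample 1 for 21 of 34 members (61.8%), beside 49.6% of all tested genes, with a median log2 difference of -0.25 between them, beside 0.01. It was the lowest of the 5 tumour samples for 14 members (41.2%), beside 25.4% of all tested genes. PEA3-null sample 1 and wild-type sample 1 were each the highest of 5 for 11 members (32.4%), beside 20.2% and 19.3% of all genes. Aurka, Top2a, Ect2 and Tacc3, given above, were members with a wide gap between the PEA3-null samples. Cenpe and Kif11 ran the other way, at 646 and 235 in PEA3-null sample 2 against 173 and 147 in PEA3-null sample 1. PEA3-null sample 2 also had the highest sum of the tumours for the muscle and lymphocyte markers above. Marker by marker, this held for Acta1, Myh4, Tnnt3, Myl1, Cd79b and Thy1, and not for Ckm, Cd3e, Cd3g, Cd3d or Cd79a. The part of those cells in the gap was not tested. The median SD of a member was 0.33 among PEA3-null tumours, 0.23 among wild-type tumours and 0.31 among normal glands on the log2 scale, beside 0.34, 0.32 and 0.22 over all tested genes.

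Other genes that act in M phase gave a smaller median. Of 91 listed, 62 were tested in PEA3-null tumours, where 16 were higher and 2 lower, with a median of 0.77, beside 13.5% higher and 15.3% lower of all tested genes. In wild-type tumours 79 were tested, and 19 were higher and 4 lower, with a median of 0.54, beside 13.0% higher and 13.8% lower of all tested genes. Between the genotypes 0 of 62 passed, with 3 at an unadjusted p under 0.05, beside 11.2% of all tested genes. Pbk, a mitotic kinase gene, read 8296 and 3003 in PEA3-null tumours, 7160, 7171 and 5123 in wild-type tumours, and 138, 391 and 113 in normal glands. It was past the threshold in each comparison with normal glands, with differences of 4.53 in PEA3-null tumours and 4.88 in wild-type tumours (limma adjusted p = 1.23e-05 and 2.02e-06). Spc24, a subunit of the Ndc80 complex of the kinetochore, differed by 3.04 in PEA3-null tumours and 3.11 in wild-type tumours (limma adjusted p = 4.96e-04 and 1.69e-04). Others past the threshold with large differences in PEA3-null tumours were Depdc1a (2.63), Cep55 (2.25), Bora (2.19) and Gtse1 (2.11). In wild-type tumours they were Cenph (3.33), Depdc1a (2.86), Cdkn3 (2.80) and Ckap2 (2.43). Apart from Pbk, each of these genes read under 150 in every normal gland, so their order was not measured. Without normal gland 2, 13 genes of this list passed in wild-type tumours in place of 23. Shares of all tested genes in fits with samples left out are not given here. Without normal glands 1 and 2, 6 passed in PEA3-null tumours in place of 18 and 11 in wild-type tumours.

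Genes of the anaphase-promoting complex and of cohesin, the ring that holds sister chromatids together, gave smaller medians than the members and the other M-phase list. Their share of higher genes was below that of the members, which was 50% in each tumour group. It was not below that of the other M-phase list, at 25.8% in PEA3-null tumours and 24.1% in wild-type tumours. Of 21 listed, 17 were tested in PEA3-null tumours, where 6 were higher (35.3%, beside 13.5% of all tested genes) and 1 lower, with a median of 0.28. In wild-type tumours 20 were tested, and 5 were higher (25%, beside 13.0% of all tested genes) and 1 lower, with a median of 0.14. Between the genotypes 0 of 17 passed, with 2 at an unadjusted p under 0.05, beside 11.2% of all tested genes. Among genes of this list past the threshold, the largest log2 differences in PEA3-null tumours were Nipbl (2.34), Cdc26 (1.07), Smc1a (-1.05), Stag1 (0.87), Anapc2 (0.81) and Anapc11 (0.78). In wild-type tumours they were Anapc10 (1.57), Smc1a (-1.25), Cdc26 (1.17), Anapc11 (0.83), Anapc13 (0.74) and Anapc2 (0.73). Nipbl read 7.85, 84.6 and 85.1 in normal glands, so the size of its difference depends on the constant added. Smc1a, a core cohesin subunit, read 1586 and 1379 in PEA3-null tumours, 1364, 1004 and 1551 in wild-type tumours, and 3246, 2960 and 3118 in normal glands. Every tumour was below every normal gland, against the direction of most members (limma adjusted p = 0.00388 in PEA3-null tumours and 5.19e-04 in wild-type tumours). The 7 calls in PEA3-null tumours became 2 without normal gland 1, 4 without normal gland 2, 3 without normal gland 3, 4 without PEA3-null sample 1 and 0 without normal glands 1 and 2. Shares of all tested genes in those fits are not given here. A CHR core stood in 2 of 17 promoters of this list (11.8%) and in 42 of 74 of the other M-phase list (56.8%), beside the 77.1% of the members.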

How the data were processed

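The deposited values are intensities on a linear scale, 1 per probe set, from MAS5 per the submitters' processing notes, with version and settings not given in the sources used here. Their 2% trimmed means were 1500.28 to 1501.06 on every array. From the other deposited files, which hold instrument text and no measurement, the day of scanning, the chip lot and the record of the wash were read. Here a factor per array brought the 2% trimmed mean to 500, leaving out the 198 control probe sets, and log2 of the result plus 32 was taken. A probe set was tested where 2 arrays or more of its chip type reached 150. Fold changes come from these log2 values, and for dim probe sets they are smaller than the change in signal.

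The platform annotation gave a single symbol for 29131 of the 36701 probe sets, several for 724 and none for 6846. Symbols were updated by gene identifier to RefSeq assembly GRCm38.p6. All comparisons are two-sided tests from limma 3.58.1 under R 4.3.3 (lmFit, and eBayes with a trend), fitted to the 3 groups together on each chip type, with Benjamini-Hochberg adjustment over 28242 probe sets of chips A, B and C for wild-type tumours against normal glands and over 19275 of chips A and B for comparisons with PEA3-null tumours, and a threshold of 0.05. The number of arrays limits the precision.

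Members, lists, words and tests were chosen with earlier results of these data known. Named are members past the threshold in any comparison, members whose probe sets disagree in sign, the other members in ranges, and up to 6 genes per further list and comparison. Genes whose samples are given in full although they did not pass were chosen after their values were seen. Alternatives tried were quantile scaling and a common median, other constants and filters, a fit with no variance trend, array weights, only 2 groups in the fit, a replicate block, chips A and B, other choices of probe set, a minimum fold and samples left out.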

Additional observations from a re-analysis of the deposited data

Results flagged for a closer look

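The lone PEA3-null array on chip C entered no comparison with normal glands. Of the 6 members read there, it lay above every normal gland for 2, below every normal gland for 3 and within their range for Smc2. Aurkb read 604 in PEA3-null sample 1, against 284, 206 and 151 in normal glands. Anln read 977 in PEA3-null sample 1, against 499, 73.4 and 394 in normal glands. Pttg1 read 1227 in PEA3-null sample 1, against 3306, 4289 and 3247 in normal glands. Incenp read 1153 in PEA3-null sample 1, against 2059, 2254 and 1361 in normal glands, and Kif23 read 435, against 584, 596 and 487 in normal glands. These differences were not tested, and the array was scanned on another day than the other arrays of chip C.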

How the results depend on the processing

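No member past the threshold changed sign under any of the 20 alternatives for wild-type tumours or 19 for PEA3-null tumours, and 11 of 21 calls in wild-type tumours and 10 of 17 in PEA3-null tumours passed under every one that gave a value. Smc4 was lost most often, in 10 of 20. In wild-type tumours, members higher than in normal glands numbered 15 to 22 with 1 sample left out and 11 without normal glands 1 and 2; the members lower numbered 0 to 2 with 1 sample left out (2 without wild-type sample 1, 0 without any other wild-type or normal sample) and 0 without a variance trend or without normal glands 1 and 2. The median of 1.07 became 0.87 with a constant of 64, 1.40 with a filter of 300, 1.29 on chips A and B, 1.24 with the probe set of highest signal on chips A and B (added after seeing the data), and 0.92 to 1.22 with 1 sample left out. In PEA3-null tumours, members higher than in normal glands numbered 15 to 19 with 1 sample left out and 10 without normal glands 1 and 2. Their median of 1.21 became 1.55 with a filter of 300, 1.50 with only the 2 groups in the fit (27 members tested), and 1.11 to 1.45 with 1 sample left out. Between the genotypes no alternative gave a member past the threshold, and the median ranged from -0.29 (without PEA3-null sample 1) to 0.00.

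For the other M-phase genes, calls in wild-type tumours numbered 13 to 25 with 1 sample left out and 11 without normal glands 1 and 2, in PEA3-null tumours 15 to 21 and 6, and between the genotypes 0 to 1. For the anaphase-promoting complex and cohesin, calls in wild-type tumours numbered 5 to 8 with 1 sample left out, 3 without normal glands 1 and 2 and 3 with a log2 difference of at least 1. In PEA3-null tumours they numbered 2 to 7 with 1 sample left out, 4 with a common median, 2 without a variance trend, 4 with array weights, 0 without normal glands 1 and 2 and 3 with a log2 difference of at least 1, and between the genotypes 0 to 1, the 1 without PEA3-null sample 1. Where leaving out a sample left 1 array in a group, that array was assumed to vary like the other groups. Fewer samples are tested in the fits with samples left out, and shares of all tested genes in those fits are not given here. Other causes were not tested.

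Replicate numbers did not pair the samples, since same-numbered samples correlated at -0.11 to 0.07 in their deviations from the group means. With the replicate number as a block, 18 members were higher and 1 lower in wild-type tumours, 16 were higher in PEA3-null tumours and 0 passed between the genotypes, with medians of 1.07, 1.31 and -0.06. The block left 4 of 7 calls for the anaphase-promoting complex and cohesin in PEA3-null tumours. Members near or under a signal of 150 in normal glands, and the 6 read on chip C, are the least precisely measured.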
